A study of Mus musculus with 18 samples.

Results

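Vegfa, Areg, Hbegf, Tgfa, Osm, Tnfsf13, Tnfsf13b, Tnfsf14, Tnfsf10 and Tnfsf9 encode growth factors of tissue repair and ligands of the TNF superfamily, among them survival factors of plasma cells. They were chosen by name for these roles, with earlier results of these data known. They are 10 of the 22708 genes in a table of RNA sequencing of eosinophils from the mouse small intestine. Cells were sorted as CD11b+ MHC-II- SiglecF+ SSChi eosinophils from C57/BL6 mice of 3 genotypes. Each genotype had 6 samples, 3 from females (F1, F2 and F3) and 3 from males (M1, M2 and M3). The genotypes were wild type (WT), Ahr-/-, which lacks the aryl hydrocarbon receptor (AHR), and Ahrr-/-, labelled as lacking its repressor. The comparisons ask whether the receptor and the repressor change what these cells transcribe.

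Ahr-/- mice lacked the receptor in the whole body, not in eosinophils alone. Litters and cages were not shared between WT and Ahr-/- mice. The methods give a range of ages but none for each mouse, and the Ahrr-/- allele is not described in the sources used here. The total count per sample, which sets the depth, ran from 3842977 in WT F3 to 12046933 in Ahrr-/- F3. Depth differed by genotype, with at most 8149200 in WT, 6581818 to 10284124 in Ahr-/- and at least 8788867 in Ahrr-/-. Expression is given on the log2-like scale of the deposited values, a variance-stabilizing transformation (VST), on which a count of 0 is 5.02. On that scale a given ratio makes a smaller difference at low counts than at high counts. In bulk RNA of sorted cells, fewer cells of a type and less RNA per cell cannot be told apart.

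VEGF-A makes blood vessels grow and leak. Amphiregulin (Areg), HB-EGF (Hbegf) and TGF-alpha (Tgfa) are made as membrane proteins, are cut loose by ADAM proteases and act on the epidermal growth factor receptor, which drives epithelial repair, and oncostatin M (Osm) is a cytokine of the IL-6 family that acts on stromal cells. APRIL (Tnfsf13) and BAFF (Tnfsf13b) keep plasma cells and B cells alive. LIGHT (Tnfsf14), TRAIL (Tnfsf10) and the 4-1BB ligand (Tnfsf9) act on lymphocytes, stroma or dying cells. Gut eosinophils are known as neighbours of the IgA plasma cells of the lamina propria. The study behind these data states that early reports of eosinophils sustaining plasma cells and IgA were later refuted.

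The targeted genes come first. Ahr transcript lay between 13.40 and 14.40 in WT and between 14.15 and 14.67 in Ahr-/-, so it was not lower in Ahr-/- samples (difference 0.61, SE 0.19, adjusted p 0.0557 by limma). Which part of the gene is deleted was not given, so whole-gene counts do not check the deletion. AHR target genes were low in Ahr-/-, where Ahrr had 0 to 10 counts in each sample and a highest value of 5.79 against a lowest of 9.79 in WT. Tiparp differed by -2.60, Cyp1b1 by -4.07 and Nqo1 by -1.82 between Ahr-/- and WT, and Cyp1a1 did not reach the minimum mean. Ahrr transcript lay between 9.95 and 10.93 in the samples labelled Ahrr-/- and between 9.79 and 10.39 in WT, a difference of 0.28 (SE 0.18, adjusted p 0.683 by limma). It was thus not lower in the samples labelled Ahrr-/-, and the genotype of those samples rests on the label alone.

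Of 11 eosinophil markers, Alox15, Itgam and Ccr3 were the most abundant, with means of 18966, 16899 and 11975 normalized counts. The granule genes Epx, Ear1, Ear2 and Ear6 had means of 10.2, 5.33, 8.69 and 0.167 normalized counts and were not tested. The granule gene Prg2 had means of 76.9 in WT, 625 in Ahr-/- and 102 in Ahrr-/- and was called in Ahr-/- against WT (2.30, adjusted p 3.47e-07) and in Ahrr-/- against Ahr-/- (-2.07). In Ahr-/- against WT 7 of 7 tested eosinophil markers were higher and Prg2 and Alox15 were called, where 8.84% of all tested genes were. Ear6 was at 0 in every sample except WT F3 and Ahr-/- F3. Those libraries stood apart in another way. The number of genes at 0 was 2464 in WT F3 and 3014 in Ahr-/- F3, against 5472 to 7562 in the other 16.

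The summed level of 13 epithelial markers, with Lyz1 the most abundant, ran from 9734 to 26616 normalized counts in WT, from 9890 to 13830 in Ahr-/- and from 11494 to 60464 in Ahrr-/-. Ahrr-/- M1, M3 and F3 were highest at 60464, 56831 and 40028, followed by Ahrr-/- M2 at 27649 and WT F1 at 26616, and none of the 13 genes was at 0 in any sample. In Ahrr-/- against Ahr-/-, 13 of 13 epithelial markers were higher and 6 were called, and 7 of 7 tested eosinophil markers were lower and 4 were called, where 14.9% of all tested genes were. In Ahr-/- against WT 4 of 13 epithelial markers were higher and 9 lower (median -0.45), with Muc2 called. In Ahrr-/- against WT 13 of 13 were higher (median 0.66) and 6 of 7 tested eosinophil markers were lower (median -0.21), with none called. The eosinophil sum was lowest in the same Ahrr-/- M3 and F3, at 23044 and 32764 normalized counts, and its medians were 53996 in WT, 62099 in Ahr-/- and 48526 in Ahrr-/-. Fibroblast markers (6 genes, Col3a1 the most abundant) reached 1626, 920 and 477 in Ahrr-/- M3, F3 and M1 and at most 202 outside that genotype. The fibroblast gene Lum was at 0 in WT F1, F2, M2 and M3, in every Ahr-/- sample except F3 and in Ahrr-/- F1.

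Lymphocyte markers (10 genes, with Jchain the most abundant over all samples) had medians of 574 in WT, 267 in Ahr-/- and 3876 in Ahrr-/-, and Ncr1 and Klrb1c were at 0 in most samples. Jchain made up 5833 of 5902 normalized counts in Ahrr-/- M1 but 14.1 of 124 in Ahr-/- F3. The list of macrophages, monocytes and dendritic cells (12 genes) had medians of 10726, 9980 and 10577, with Adgre1 the most abundant, and that of endothelial cells (6 genes) had medians of 3339, 2133 and 2770, with Pecam1 the most abundant and called lower in Ahr-/- than in WT. Eosinophils express Adgre1 and Pecam1 too, and Adgre1 made up 3255 of the 10715 in Ahrr-/- M3. Of 11 tested genes of the macrophage list 9 were higher in Ahrr-/- than in Ahr-/-, but C1qa and Ly6c2 passed the minimum mean only through Ahrr-/- and had to be higher. C1qb alone was called, and Cd74 had means of 895 in WT, 910 in Ahr-/- and 1722 in Ahrr-/-. Neutrophil markers (7 genes, Ngp the most abundant) had medians of 78.3, 29.1 and 98.2 and mast cell markers (6 genes, Kit the most abundant) of 83.9, 106.9 and 181.7. Elane of the neutrophil list was at 0 in every sample except Ahrr-/- F2, and Tpsb2 and Fcer1a of the mast cell list were at 0 in most samples. Jchain, Mmp8 of neutrophils, Col1a2 of fibroblasts and Cdh5 of endothelial cells were also called higher in Ahrr-/- than in Ahr-/-. Mmp8 and Col1a2 had means of 8.67 and 12.9 normalized counts in Ahr-/-, below the minimum, against 94.2 and 94.5 in Ahrr-/-. They passed there only through Ahrr-/- and had to be higher. In Ahr-/- against WT Csf1r of the macrophage list was called higher and Mmp8 lower, and Col1a2 and Cdh5 were not tested.

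Across the 18 samples the 10 genes spanned a wide range of abundance. Per kb of exon, the median level was 347 normalized counts for Vegfa, 174 for Osm, 45.7 for Hbegf, 41.9 for Tnfsf14, 38.8 for Tnfsf10, 14.0 for Areg, 6.58 for Tgfa, 3.46 for Tnfsf9, 3.38 for Tnfsf13b and 1.27 for Tnfsf13. Vegfa was above Osm per kb, and Osm above Hbegf, in 18 of 18 samples, while Hbegf was above Tnfsf14 in 8 of 18. No neighbours in this order had ranges that were apart, and the order changed with genotype. By the medians of a genotype, Tnfsf14 was above Hbegf in Ahr-/- (53.8 against 37.0) and Areg above Tnfsf14 in Ahrr-/- (37.7 against 29.8). In WT Tgfa was above Areg (7.49 against 6.84). APRIL, a plasma cell survival factor, was the least abundant, with 0 to 28 counts in a sample.

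**Figure D1:**
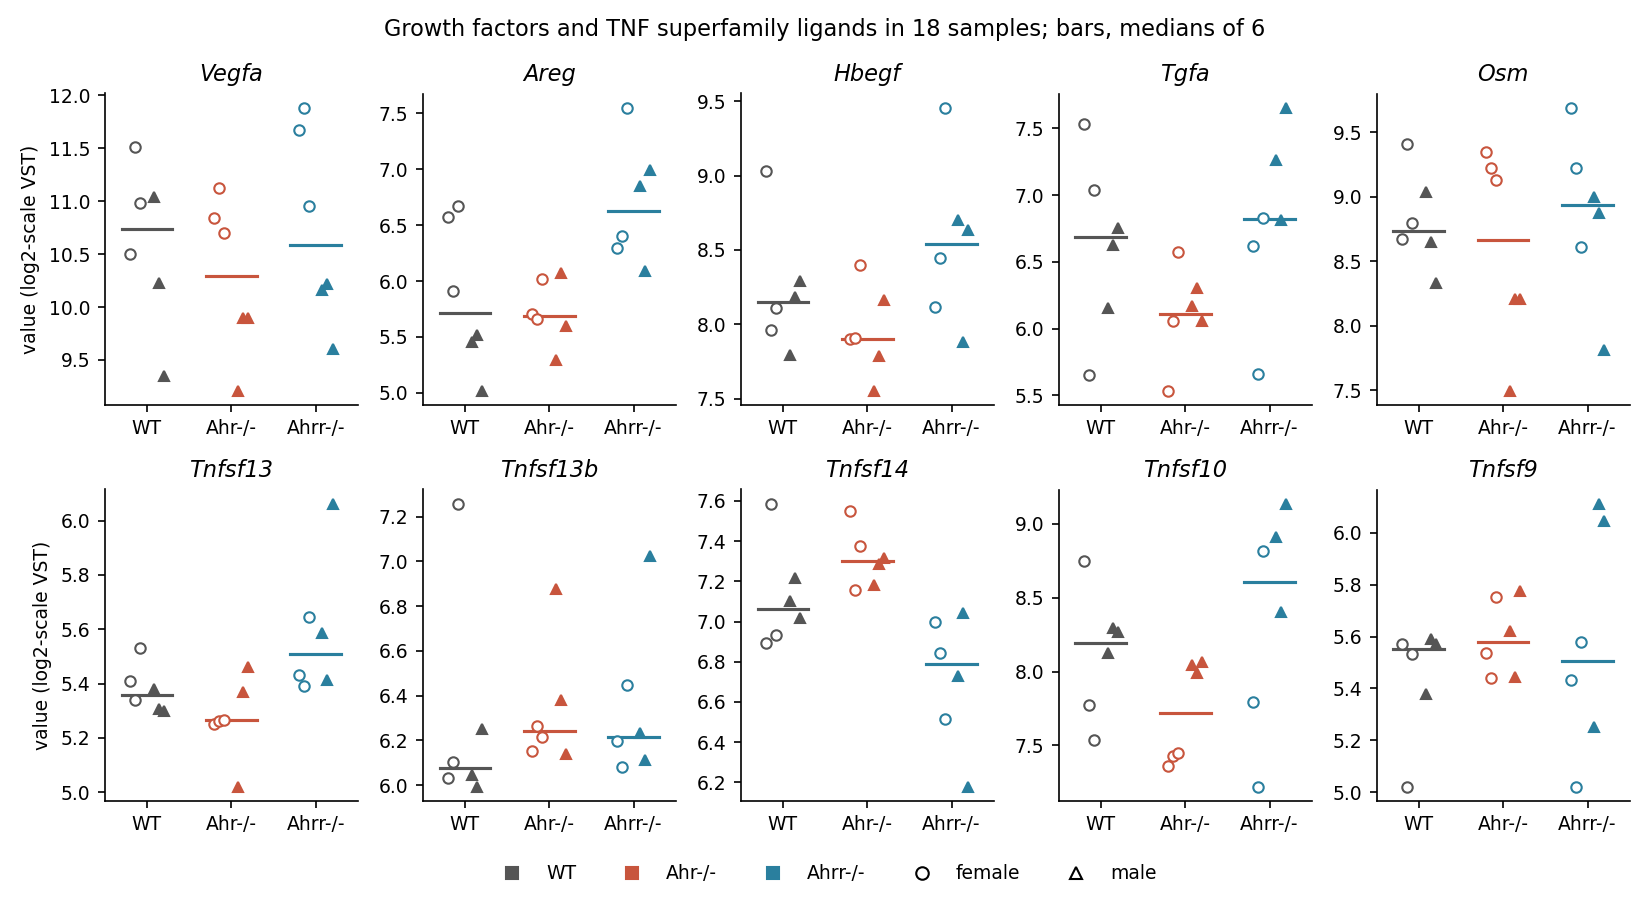
Values of the 10 genes in each of 18 samples on the log2-like VST scale (vertical axis) by genotype (horizontal axis), with females as open circles, males as filled triangles and the median of 6 as a bar. Vegfa was higher in females than in every male within Ahr-/- and within Ahrr-/-, Areg was higher in every Ahrr-/- sample (6.09 to 7.55) than in any Ahr-/- sample (5.29 to 6.07), and Tnfsf14 was lower in every Ahrr-/- sample (6.18 to 7.04) than in any Ahr-/- sample (7.16 to 7.55).

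The bases just before the start of Vegfa, Areg, Tnfsf14 and Tnfsf10 are shown because the results below turn on these genes. The sequences are from RefSeq (build GRCm38.p6). The set of promoter windows used here held 7 members and lacked Hbegf, Osm and Tnfsf9. They were searched on both strands, over the 250 bases before the start, for the AHR core GCGTG, the hypoxia core ACGTG, the AP-1 motif TGANTCA and the cAMP response element TGACGTCA. Of 32851 promoter windows of that length, 28.2% held the AHR core, 16.6% the hypoxia core, 6.75% the AP-1 motif and 1.55% the cAMP element. The AHR and hypoxia cores share the letters CGTG. Matches are in capitals. Vegfa is on the - strand (chr17:46032378-46032627), Areg on the + strand (chr5:91139349-91139598), Tnfsf14 on the - strand (chr17:57194182-57194431) and Tnfsf10 on the + strand (chr3:27316827-27317027, the bases up to the nearest annotated exon).
Vegfa: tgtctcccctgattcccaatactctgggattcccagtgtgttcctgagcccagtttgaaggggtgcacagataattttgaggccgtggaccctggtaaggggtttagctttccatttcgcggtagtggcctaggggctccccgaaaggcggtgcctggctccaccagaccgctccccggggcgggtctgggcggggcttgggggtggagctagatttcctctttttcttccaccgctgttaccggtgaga
Areg: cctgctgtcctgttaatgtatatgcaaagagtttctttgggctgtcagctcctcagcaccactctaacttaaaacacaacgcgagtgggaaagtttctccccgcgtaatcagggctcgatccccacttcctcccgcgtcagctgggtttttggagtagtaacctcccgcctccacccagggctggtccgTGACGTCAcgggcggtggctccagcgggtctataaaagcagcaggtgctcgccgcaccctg
Tnfsf14: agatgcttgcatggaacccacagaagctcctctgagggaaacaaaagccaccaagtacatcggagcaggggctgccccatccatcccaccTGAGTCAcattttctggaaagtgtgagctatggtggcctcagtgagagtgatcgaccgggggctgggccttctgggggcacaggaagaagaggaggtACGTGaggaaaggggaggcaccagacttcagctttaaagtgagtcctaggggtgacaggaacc
Tnfsf10: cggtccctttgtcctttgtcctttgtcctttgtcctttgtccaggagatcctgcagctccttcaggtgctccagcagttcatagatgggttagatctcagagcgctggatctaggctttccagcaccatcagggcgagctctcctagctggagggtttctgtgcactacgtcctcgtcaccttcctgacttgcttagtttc
The Areg window held the cAMP element 61 bases before the start, and the Tnfsf14 window held the AP-1 motif 160 bases and the hypoxia core 63 bases before it. The windows printed for Vegfa and Tnfsf10 held none of the motifs. The window of another annotated Vegfa start (chr17:46025164-46025413) held the AHR core 218 bases and the hypoxia core 211 bases before that start. That window lies inside the Vegfa gene (chr17:46016993-46032369) and takes in annotated exon, so its matches may be exon letters. Of the members not printed, Tgfa held the AHR core 222 bases and Tnfsf13 the AHR core 98 and the AP-1 motif 133 bases before the start. For Tnfsf13b, 1 of 2 windows held the AP-1 motif, 127 bases before its start, and that of the other start held none. The Tnfsf13 window and the Tnfsf13b window with the match also run into their genes (chr11:69682846-69685784 and chr8:10006467-10039072) and take in annotated exon. A match is a run of letters, not a bound site.

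Differences were tested by limma on the log2-like values with sex as a covariate, over every gene whose mean was at least 1 above the value of a 0 count, and a gene is called here where its p adjusted over all tested genes was under 0.05. Between WT and Ahr-/-, 1003 of 11346 genes were called (8.84%) and 0 of the 7 members tested. By limma 1 of the 7, Tnfsf10, had an unadjusted p under 0.05, where 2638 of all 11346 tested genes had. By voom 0 members were called as well. Areg, Tnfsf13 and Tnfsf9 were below the minimum mean. Of the 7 members 2 were higher and 5 lower in Ahr-/-, with a median difference of -0.28 against 0.00 over all tested genes. Without WT F2, 1 member was called (Tgfa), and without Ahr-/- F1 the count of genes fell to 623. Without the F3 samples of WT and Ahr-/-, an alternative chosen after seeing the data, 586 genes and 0 members were called.

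Between WT and Ahrr-/-, 9 of 11546 genes were called (0.0779%) and 0 of the 8 members tested. By limma 2 of the 8, Areg and Tnfsf14, had an unadjusted p under 0.05, where 853 of all 11546 tested genes had. Again voom called 0 members. Tnfsf13 and Tnfsf9 were below the minimum mean in this and the next comparisons. Of the 8 members 7 were higher and 1 lower in Ahrr-/- (median 0.16 against 0.01 over all genes), Areg among them, which passed the minimum mean only through Ahrr-/-, and under quantile normalization Osm and Tnfsf13b changed sign. The count of 9 genes fell to 4 without WT F1, F2, M2 or M3 or Ahrr-/- F2, M2 or M3, fell to 5 without Ahrr-/- F3, and rose to 25 without Ahrr-/- F1.

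Between Ahr-/- and Ahrr-/-, 1708 of 11474 genes were called (14.9%) and 3 of the 8 members tested, Areg, Tnfsf14 and Tnfsf10. Areg reached the minimum mean only through Ahrr-/-, the group where it is high, so its passing was tied to its difference. The comparison is of knockouts with each other, not with WT. Of the 8 members 7 were higher and 1 lower in Ahrr-/- (median 0.53 against 0.00 over all genes), and Tnfsf13b changed sign when samples were centred on their median or quantile normalized. Leaving out a sample gave 2 to 4 called members. The count of genes fell to between 818 and 1001 without Ahr-/- F1, F2, M1, M2 or M3 or Ahrr-/- F3 or M3, and rose to 2574 without Ahrr-/- F1. Comparisons of genotypes share samples, so their counts are not independent.

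Between males and females, with genotype as a covariate in all 18 samples, 351 of 11468 genes were called (3.06%) and 2 of the 8 members tested, Vegfa and Osm, both lower in males. Of the 8 members 3 were higher and 5 lower in males, with a median of -0.17 against 0.01 over all genes. The count of genes rose to 733, 595 and 577 without WT F1, WT M1 and Ahrr-/- F3, and fell to between 142 and 211 without WT F2 or M3, without Ahr-/- F1, F2, M1, M2 or M3, or without Ahrr-/- F1, F2 or M3. Whether genotype and sex act together was tested by the interaction of Ahr-/- with sex, where 0 of 11346 genes were called (0%) and 0 of 7 members, and by that of Ahrr-/- with sex, where 0 of 11546 were called (0%) and 0 of 8 members. By limma 533 and 544 genes, with 1 and 0 members, had an unadjusted p under 0.05, and voom called 0 genes in each.

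**Figure D2:**
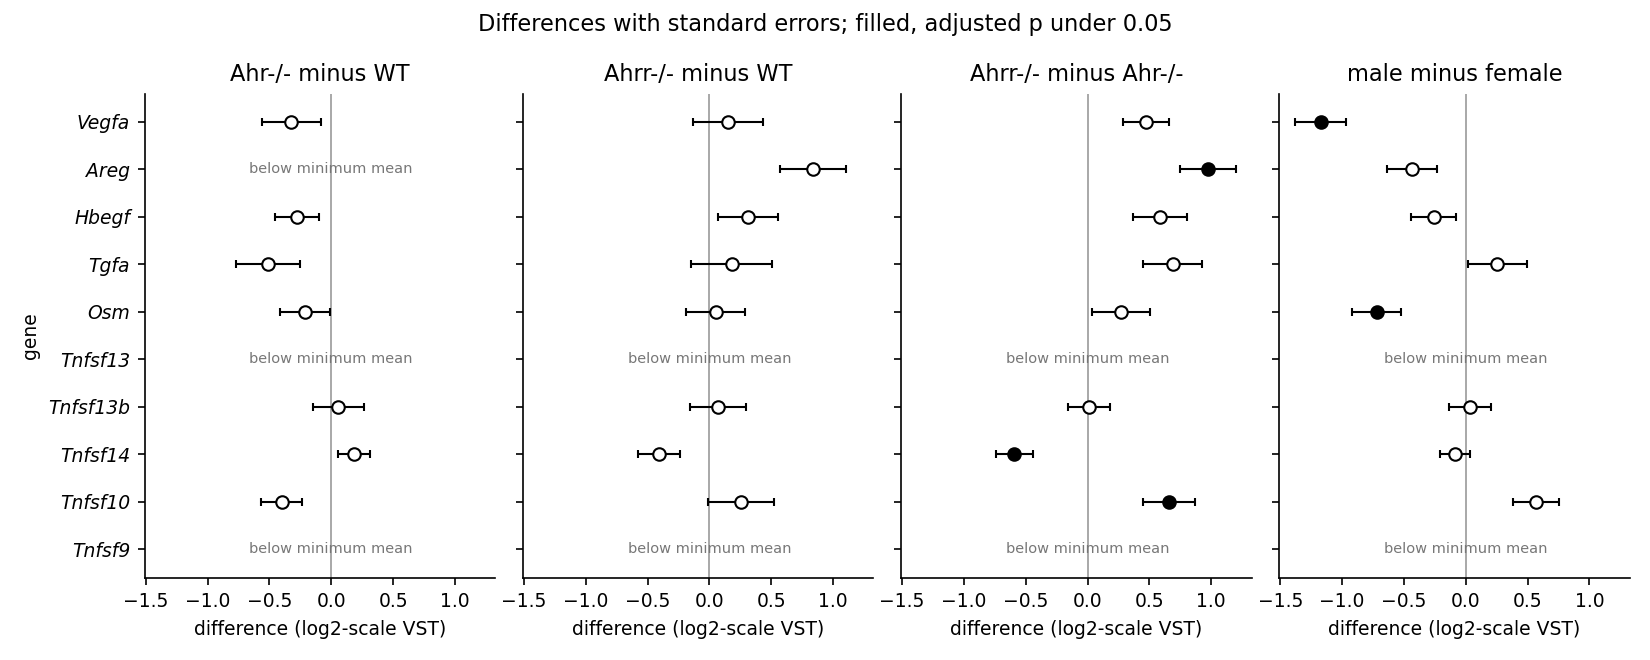
Differences of the 10 genes (vertical axis) in 4 comparisons on the log2-like VST scale (horizontal axis), with bars of 1 SE and filled points where the adjusted p was under 0.05. Areg (0.97) and Tnfsf10 (0.66) were higher and Tnfsf14 (-0.59) lower in Ahrr-/- than in Ahr-/-, and Vegfa (-1.17) and Osm (-0.72) were lower in males than in females.

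Vegfa, the vessel growth factor, had lowest, median and highest values of 9.34, 10.74 and 11.51 in WT, of 9.21, 10.30 and 11.13 in Ahr-/- and of 9.60, 10.59 and 11.88 in Ahrr-/-. The genotypes overlapped widely, and the spread within Ahr-/- and within Ahrr-/- followed sex. Females had values of 10.70 to 11.13 in Ahr-/- and 10.95 to 11.88 in Ahrr-/-, and males had values of 9.21 to 9.90 and 9.60 to 10.22. In those genotypes no male reached the lowest female, while in WT male M1 at 11.04 was above females F1 and F3 at 10.50 and 10.98. The difference of males from females was -1.17 (SE 0.21, adjusted p 0.00562), and it was called without each sample in turn, from -1.32 to -1.08. Between genotypes the differences were -0.32 (SE 0.24) for Ahr-/- against WT, 0.15 (SE 0.28) for Ahrr-/- against WT and 0.47 (SE 0.19, adjusted p 0.0957) for Ahrr-/- against Ahr-/-. In the interaction of genotype with sex, the differences for Vegfa were -0.42 (SE 0.49) for Ahr-/- and -0.71 (SE 0.55) for Ahrr-/-, neither called.

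Areg, the EGF receptor ligand also made by lymphocytes in repair, had lowest, median and highest values of 5.02, 5.71 and 6.67 in WT, of 5.29, 5.68 and 6.07 in Ahr-/- and of 6.09, 6.63 and 7.55 in Ahrr-/-. Every Ahrr-/- sample was above every Ahr-/- sample, and in WT the 3 females (5.91 to 6.67) were above the 3 males (5.02 to 5.51). Counts were low, 0 to 35 in WT and 1 to 19 in Ahr-/-, against 23 to 208 in Ahrr-/-. Normalized for depth they were 0 to 47.5, 1.14 to 17.9 and 18.7 to 128 in the same order. The difference of Ahrr-/- from Ahr-/- was 0.97 (SE 0.22, adjusted p 0.0127), higher in 6 of 6 samples, and it was called without each of the 12 samples in turn (adjusted p 0.00714 to 0.0375). On the scale of log2 of normalized counts plus 1, where low counts are not drawn together, that difference was 2.53. Over the planned settings adjusted p ran from 0.00891 to 0.0663, and the call was lost with no minimum mean. The mean of Areg was 5.86 in WT and 5.72 in Ahr-/-, below the minimum, and 6.70 in Ahrr-/-, through which alone it was tested. With the stricter minimum Areg was not tested. Against WT the difference of Ahrr-/- was 0.84 (SE 0.27, adjusted p 0.529), with 3 Ahrr-/- samples above all WT samples. Ahrr-/- F3, M1 and M3, the libraries with the highest epithelial sums, had the 3 highest Areg values of all 18 samples, 7.55, 6.85 and 6.99. Without them Areg fell below the minimum mean in both comparisons and was not tested.

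Hbegf, a ligand of the EGF receptor, had lowest, median and highest values of 7.79, 8.15 and 9.03 in WT, of 7.55, 7.90 and 8.40 in Ahr-/- and of 7.88, 8.54 and 9.46 in Ahrr-/-. The genotypes overlapped, WT F1 and Ahrr-/- F3 stood above the other samples of their groups, and 4 of 6 Ahrr-/- samples were above every Ahr-/- sample. Its difference of Ahrr-/- from Ahr-/- was 0.59 (SE 0.22, adjusted p 0.0777). It was called without Ahrr-/- F1 or M2, at 0.0302 and 0.0404, in a range of adjusted p from 0.0302 to 0.163 over the samples left out. Of the planned settings the replicate block alone called it (0.0273 to 0.208). Against WT the differences were -0.28 (SE 0.18) in Ahr-/- and 0.31 (SE 0.24) in Ahrr-/-.

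Tgfa, another ligand of the EGF receptor, had lowest, median and highest values of 5.66, 6.69 and 7.53 in WT, of 5.54, 6.11 and 6.58 in Ahr-/- and of 5.66, 6.82 and 7.66 in Ahrr-/-. WT and Ahrr-/- each had female F2 as the lowest sample, at 5.66, and 5 of 6 Ahrr-/- samples were above every Ahr-/- sample. Its difference of Ahrr-/- from Ahr-/- was 0.69 (SE 0.24, adjusted p 0.0622), and it was called without Ahr-/- F3 (0.0229) or Ahrr-/- F2 (0.00852), in a range up to 0.144. Of the planned settings the replicate block alone called it (0.0495 to 0.185). In Ahr-/- against WT the difference was -0.51 (SE 0.26, adjusted p 0.253), with 6 of 6 Ahr-/- samples below the WT median. Without WT F2 it was -0.73 and was called (adjusted p 0.0437, in a range from 0.0437 to 0.475). The 3 members that are ligands of the EGF receptor were each higher in Ahrr-/- than in Ahr-/-, under median centring and quantile normalization too. Areg alone was called, but it passed the minimum mean only through Ahrr-/- and had to be higher there. The 2 other ligands of the EGF family tested there were both lower in Ahrr-/- (median -0.26), and 1 of them reached the minimum mean only through Ahr-/-. Of those not tested, Ereg, Btc and Nrg2 had higher mean normalized counts in Ahrr-/- than in Ahr-/-, and Nrg1, Nrg3 and Epgn lower ones. All of these means were at most 16.2.

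Osm, the IL-6 family cytokine of the list, had lowest, median and highest values of 8.34, 8.74 and 9.41 in WT, of 7.50, 8.67 and 9.35 in Ahr-/- and of 7.81, 8.94 and 9.69 in Ahrr-/-. The genotypes overlapped. In Ahr-/- the 3 females (9.13 to 9.35) were above the 3 males (7.50 to 8.21), and in WT and Ahrr-/- the sexes overlapped. The difference of males from females was -0.72 (SE 0.20, adjusted p 0.0499), with 9 of 9 males below the female median. Its call was at the threshold. It was kept without WT F1, F3 or M1 or Ahrr-/- F3 or M1 and was lost without each of the other 13 samples, with adjusted p from 0.0199 to 0.113. Of 9 planned settings 1 kept it, the stricter minimum (0.0397 to 0.102). In the interaction of Ahr-/- with sex, Osm had the lowest unadjusted p of the members, with a difference of -0.98 (SE 0.33, adjusted p 0.954). Between genotypes its differences were -0.22 (SE 0.20), 0.05 (SE 0.24) and 0.27 (SE 0.23) for Ahr-/- against WT, Ahrr-/- against WT and Ahrr-/- against Ahr-/-.

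Tnfsf13, which encodes APRIL, had 1 or 2 counts in each WT sample, 0 to 4 in each Ahr-/- sample and 2 to 28 in each Ahrr-/- sample. Its highest value, 6.06 in Ahrr-/- M3, and the next, 5.64 in Ahrr-/- F3, were in libraries with high epithelial sums, whose part in the result was not tested. The locus is covered on the same strand by the read-through gene Tnfsfm13, which had 40 counts in all samples together, so the division of reads between them limits what this value says. Below the minimum mean it was tested only in the alternative without that minimum. There the differences were -0.11 (SE 0.08, adjusted p 0.635) in Ahr-/- against WT, 0.21 (SE 0.11, adjusted p 0.739) in Ahrr-/- against WT and 0.32 (SE 0.12, adjusted p 0.162) between the knockouts.

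Tnfsf13b, which encodes BAFF, had lowest, median and highest values of 5.99, 6.07 and 7.26 in WT, of 6.14, 6.24 and 6.88 in Ahr-/- and of 6.08, 6.22 and 7.02 in Ahrr-/-. In each genotype 5 samples lay close together and 1 stood above them, WT F3, Ahr-/- M1 and Ahrr-/- M3. WT F3 had 46 counts at the lowest total of all samples, and Ahrr-/- M3 had 116. The differences were 0.06 (SE 0.21) for Ahr-/- against WT, 0.07 (SE 0.23) for Ahrr-/- against WT and 0.01 (SE 0.17) for Ahrr-/- against Ahr-/-. Without the F3 samples of WT and Ahr-/- the difference of Ahr-/- from WT was 0.28 (SE 0.15), with an adjusted p of 0.320 in a range of 0.288 to 0.999 over single samples left out.

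Tnfsf14, which encodes LIGHT, had lowest, median and highest values of 6.89, 7.06 and 7.59 in WT, of 7.16, 7.30 and 7.55 in Ahr-/- and of 6.18, 6.79 and 7.04 in Ahrr-/-. Every Ahrr-/- sample was below every Ahr-/- sample, with WT between and overlapping both. It was lowest in Ahrr-/- M3 and F3, at 6.18 and 6.52. The difference of Ahrr-/- from Ahr-/- was -0.59 (SE 0.15, adjusted p 0.0188), lower in 6 of 6 samples, and it was called without each of the 12 samples in turn (adjusted p 0.0100 to 0.0496). Over the planned settings adjusted p ran from 0.0139 to 0.0576, and the call was lost with no minimum mean. With the stricter minimum Tnfsf14 was not tested. Against WT the differences were 0.19 (SE 0.13) in Ahr-/- and -0.41 (SE 0.17, adjusted p 0.658) in Ahrr-/-, and 6 of 6 Ahrr-/- samples were below the WT median. In the main test LIGHT was the one tested member that was higher in Ahr-/- and lower in Ahrr-/- than in WT. It had these signs under median centring and quantile normalization too, though neither difference from WT was called. Under quantile normalization Tnfsf13b had the same signs (-0.0228 in Ahrr-/- against WT), also not called.

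Tnfsf10, which encodes TRAIL, had lowest, median and highest values of 7.53, 8.20 and 8.75 in WT, of 7.36, 7.72 and 8.06 in Ahr-/- and of 7.22, 8.61 and 9.14 in Ahrr-/-. In Ahr-/- the samples fell by sex, with females at 7.36 to 7.45 and males at 7.99 to 8.06. In Ahrr-/- the samples M3, M1, F3 and M2 were above every Ahr-/- sample, and F2 at 7.22 was below all of them. The difference of Ahrr-/- from Ahr-/- was 0.66 (SE 0.21, adjusted p 0.0496). It was called without Ahrr-/- F1, F2 or M2 (0.0400, 0.00718 and 0.0388) and not without Ahrr-/- F3, M1 or M3 or any of the 6 Ahr-/- samples, where adjusted p ran up to 0.114. Of 11 planned settings 4 kept the call, and it was lost with no minimum mean, the stricter minimum, no trend, log2 of normalized counts plus 1, voom, no covariate and all 18 samples (adjusted p up to 0.155). The difference of males from females was 0.57 (SE 0.19, adjusted p 0.101), with 9 of 9 males above the female median, and it was called without WT F1 (0.0144) or Ahrr-/- F3 (0.0343), in a range up to 0.196. Against WT the differences were -0.40 (SE 0.17, adjusted p 0.157) in Ahr-/- and 0.26 (SE 0.27) in Ahrr-/-.

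Tnfsf9, which encodes the 4-1BB ligand, had lowest, median and highest values of 5.02, 5.55 and 5.59 in WT, of 5.44, 5.58 and 5.78 in Ahr-/- and of 5.02, 5.51 and 6.11 in Ahrr-/-. Only Ahrr-/- M2 and M3, with 24 and 27 counts, were above 12 counts, and WT F2 and Ahrr-/- F2 had 0. The lincRNA Gm11110 on the opposite strand shares 618 bases with the gene and had 500 counts, and whether reads were divided by strand was not stated. The gene did not reach the minimum mean. In the alternative without it the differences were 0.15 (SE 0.11, adjusted p 0.647), 0.13 (SE 0.17, adjusted p 0.814) and -0.02 (SE 0.17, adjusted p 0.999) in Ahr-/- against WT, in Ahrr-/- against WT and between the knockouts.

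Several members moved with marker sums from sample to sample. Over 18 samples, which share libraries with the marker values, Pearson's r with the log2 of the epithelial sum was 0.84 for Tnfsf10, 0.79 for Tgfa, 0.72 for Hbegf and 0.65 for Areg, and it was -0.79 for Tnfsf14. Spearman's rho was 0.70, 0.85, 0.73, 0.62 and -0.69 in the same order. After the means of each genotype and sex were removed, r was 0.89 for Tnfsf10, 0.91 for Hbegf, 0.74 for Tgfa, 0.61 for Areg, -0.60 for Tnfsf14, -0.60 for Osm and -0.77 for Vegfa. Leaving out Ahrr-/- M1 and M3, the samples farthest from the median sum, r over 16 samples was 0.74 for Tnfsf10, 0.75 for Hbegf, 0.70 for Tgfa, 0.53 for Areg and -0.68 for Tnfsf14. These are descriptions with no p. With the fibroblast sum r was 0.77 for Areg (0.75 after removal of those means) and -0.81 for Tnfsf14 (-0.71), and for Tnfsf10, Hbegf and Tgfa it was 0.61 (0.49), 0.64 (0.66) and 0.56 (0.34). With the endothelial sum r was 0.64 for Vegfa (0.74) and 0.61 for Osm (0.78), with the neutrophil sum it was 0.65 for Vegfa (0.34) and with the lymphocyte sum 0.64 for Areg (0.37). The eosinophil marker sum ran opposite to the epithelial sum, with r of -0.82 for Tnfsf10 and 0.82 for Tnfsf14. For Vegfa and Osm r with the eosinophil sum was 0.32 (0.64) and 0.45 (0.80), of the same sign as with the endothelial sum. Pecam1, the most abundant gene of the endothelial list, is expressed by eosinophils too. The part of other cells in these results was not tested.

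**Figure D3:**
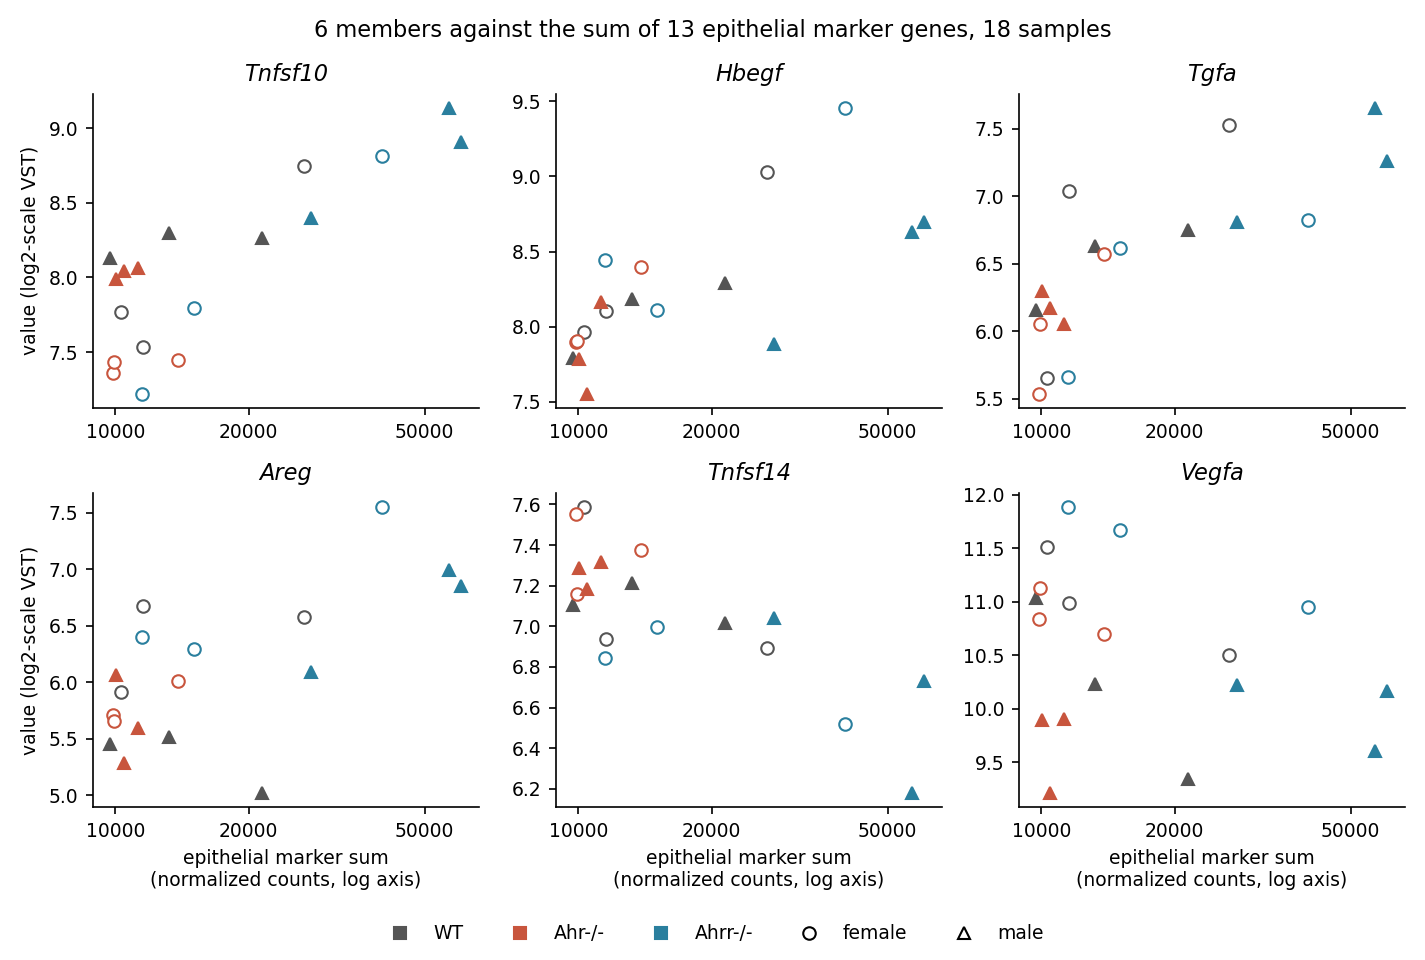
Values of 6 members on the log2-like VST scale (vertical axis) against the summed normalized counts of 13 epithelial markers (horizontal axis, logarithmic), a point for each of 18 samples by genotype and sex. Tnfsf10 rose with the sum (r 0.84) and Tnfsf14 fell (r -0.79), and Ahrr-/- M1, M3 and F3 lay farthest to the right, at 60464, 56831 and 40028.

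The differences were therefore also taken without Ahrr-/- F3, M1 and M3, an alternative chosen after seeing the data, which leaves 3 Ahrr-/- samples. Against Ahr-/-, 626 of 11320 genes were called and 1 of the 7 members tested. That member was Vegfa, higher in Ahrr-/- by 0.76 (SE 0.17, adjusted p 0.0141). The planned settings were run without this omission, and over them its adjusted p ran from 0.0397 to 0.457. Tnfsf14 was -0.36 (SE 0.14, adjusted p 0.157) and Tnfsf10 was 0.20 (SE 0.14, adjusted p 0.499), so that neither was called. Hbegf and Tgfa were 0.15 (SE 0.17) and 0.30 (SE 0.24). Against WT, the differences of Hbegf, Tgfa, Tnfsf13b and Tnfsf10 changed sign, to -0.13, -0.26, -0.19 and -0.25. Areg was not tested, and its 3 remaining Ahrr-/- values (at least 6.09) were still above every Ahr-/- value (at most 6.07). The 3 samples left include 2 females and 1 male, and sex was kept as a covariate.

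Between males and females the same omission left Vegfa at -1.11 (SE 0.21, adjusted p 0.0114) and Osm at -0.74 (SE 0.18, adjusted p 0.0307), both called. Without the F3 samples of WT and Ahr-/-, Vegfa was -1.23 (SE 0.23, adjusted p 0.0148) and Osm was -0.75 (SE 0.22, adjusted p 0.0765). The lower Vegfa of males was the member result that was called in every setting and every omission run here. Markers of other cells also differed by sex. In males 12 of 13 epithelial markers were higher (median 0.46, none called by limma). Of the macrophage list 8 of 10 were higher with H2-Ab1 (1.34) and H2-Aa (1.48) called, and Kit (-0.94) of mast cells and Ltf (-0.84) of neutrophils were called lower. Of all tested genes 3.06% were called. Of the eosinophil markers 6 of 7 were lower in males (median -0.14), with none called. The part of other cells in the result was not tested.

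Among the 8 members tested, some pairs rose and fell together from sample to sample. Vegfa and Osm had the highest r as measured, at 0.86 over 18 samples and 0.80 after removal of the means of genotype and sex. Tgfa and Tnfsf10 had r of 0.76 and 0.65, Areg and Hbegf 0.75 and 0.71, and Hbegf and Tnfsf10 0.54 and 0.81. Tnfsf14 ran against Tgfa (-0.72 and -0.71), Areg (-0.70 and -0.63) and Tnfsf10 (-0.66 and -0.55). Osm and Tnfsf14 had r of only 0.31 as measured and 0.81 after removal of those means.

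**Figure D4:**
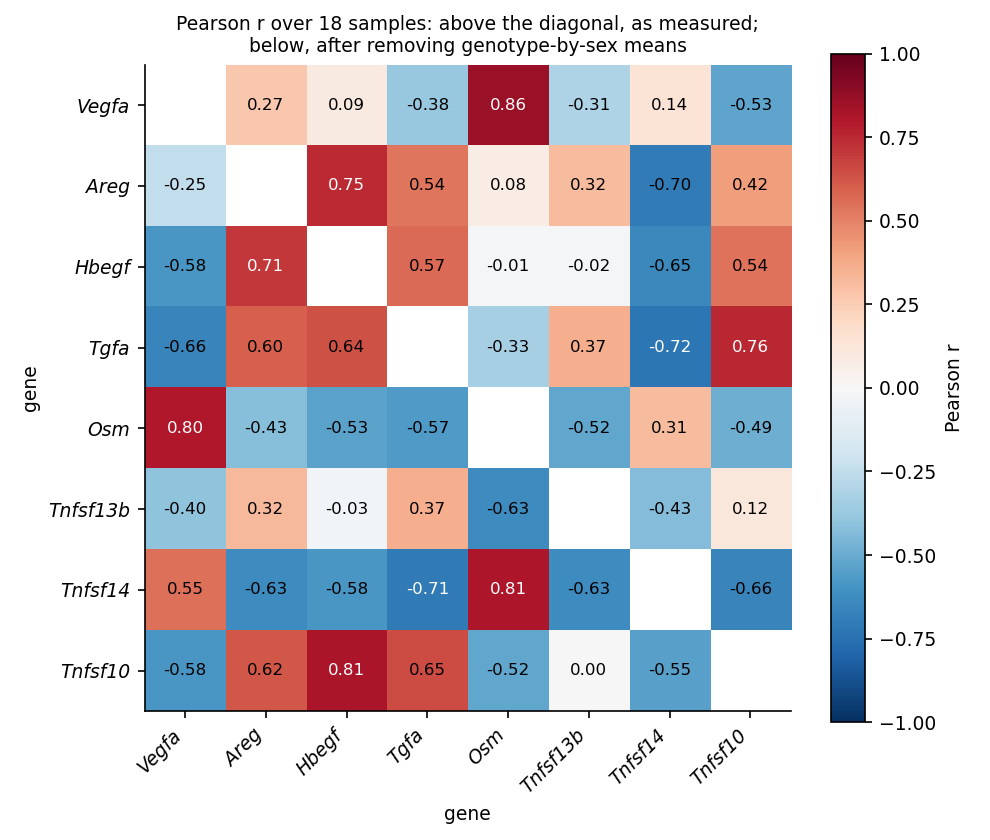
Pearson's r between the 8 members tested (both axes) over 18 samples, as measured above the diagonal and after removal of the means of each genotype and sex below it. Vegfa and Osm (0.86 and 0.80) rose together, and Tnfsf14 and Tgfa (-0.72 and -0.71) ran against each other.

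The genes most like a member were found by Pearson's r over the 18 samples among 11468 genes, with r after removal of the means of genotype and sex given second. For Vegfa they were Rnf125 (0.97 and 0.95), Arih2 (0.97 and 0.94) and Myo1c (0.97 and 0.95). For Osm they were Slc16a3 (0.92 and 0.84), Irf2bp2 (0.92 and 0.83) and Padi4 (0.92 and 0.86). The closest genes to Tnfsf10 were Enpep (0.95 and 0.94), Tm9sf2 (0.95 and 0.92) and Slc25a24 (0.95 and 0.93). Those closest to Tgfa were Homer2 (0.93 and 0.94), Crls1 (0.92 and 0.89) and Prag1 (0.91 and 0.88). Hbegf was nearest to Vdac1 (0.90 and 0.93), Nat8f4 (0.88 and 0.94) and Ccn1 (0.88 and 0.86). Tnfsf14 was nearest to Phf21a (0.90 and 0.82), Myo1f (0.90 and 0.81) and Rps6kc1 (0.89 and 0.80). Areg had lower values, with Tnks1bp1 (0.86 and 0.76), Rnd3 (0.83 and 0.74) and Ihh (0.83 and 0.84), and so had Tnfsf13b, with Fancd2 (0.83 and 0.88), Snhg14 (0.82 and 0.89) and Gm14391 (0.82 and 0.84). These are similarities of level and say nothing of shared control.

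Most other ligands of the same families did not reach the minimum mean, as Tnfsf13 and Tnfsf9 did not. Of 8 other EGF family ligands 2 were tested in Ahr-/- against WT and in Ahrr-/- against Ahr-/- and 1 in Ahrr-/- against WT, with 0 called by limma. The most abundant was Nrg4 at 6.85 normalized counts per kb. Levels per kb of genes outside the 10 are means over all samples, while those given for the members are medians. Of 8 other VEGF and PDGF ligands 2 were tested between the knockouts, and Pdgfa was called there (0.97, SE 0.18, adjusted p 0.00335), at a level of 14.1 per kb. It was called without each of the 12 samples in turn, and also without Ahrr-/- F3, M1 and M3 together (0.66, adjusted p 0.0236). Of the other TNF superfamily ligands, 12 in the table with Cd70 absent, 2 were tested, and 0 were called between genotypes. Tnf, at 52.3 per kb, was lower in males by limma (-0.87, SE 0.18, adjusted p 0.0129), as Vegfa and Osm were, also without each of the 18 samples in turn.

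Osm belongs to the IL-6 family. Of its 7 other genes present, 3 were tested, Il6, Clcf1 and Il27, at 174.9, 110.0 and 96.9 normalized counts per kb, and 3 of 3 were lower in Ahrr-/- than in Ahr-/-. Their differences were -1.34 (SE 0.36, adjusted p 0.0240), -0.99 (SE 0.23, adjusted p 0.0128) and -0.65 (SE 0.15, adjusted p 0.0125). All 3 were called there, where 14.9% of all tested genes were. That share was 8.84% in Ahr-/- against WT and 3.06% between the sexes. Il6 was also called in Ahr-/- against WT, at 1.46 (SE 0.40, adjusted p 0.0334). That call was lost without WT F3 or M3 or Ahr-/- F1, F2, M2 or M3, with adjusted p up to 0.0830. Between the knockouts it was lost without Ahr-/- F1, F2, M2 or M3 or Ahrr-/- M3, with adjusted p up to 0.0575. Over the planned settings Il6 was called in 8 of 11 in the first comparison (adjusted p up to 0.162) and in 9 of 11 between the knockouts (up to 0.114). There Clcf1 was lost with no minimum mean (0.0698) and Il27 with no covariate (0.0682). Without Ahrr-/- F3, M1 and M3 the differences between the knockouts were -1.14 (SE 0.44), -0.62 (SE 0.23) and -0.44 (SE 0.16) for Il6, Clcf1 and Il27, none called (0.163, 0.143 and 0.132). Osm differed by -0.22 and 0.27 in the same comparisons. Il6 (-1.31, SE 0.34, adjusted p 0.0382) and Il27 (-0.51, SE 0.14, adjusted p 0.0443) were lower in males. They were called in 8 and 5 of 18 omissions of a sample (adjusted p up to 0.0919 and 0.0993) and in 7 of 9 and 3 of 8 planned settings (up to 0.138 and 0.149). Neither was called without Ahrr-/- F3, M1 and M3 (0.0858 and 0.0765).

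The receptors of the growth factors carry their signal into cells. Of 10 tested between the knockouts 9 were higher in Ahrr-/- (median 0.63 against 0.00 over all genes) and 3 were called, where 14.9% of all genes were, Egfr (0.91, adjusted p 0.0103), Il6st (0.77, adjusted p 0.0370) and Nrp1 (0.61, adjusted p 0.0287). Nrp1 and 2 others of the 10 were below the minimum mean in Ahr-/- and passed only through Ahrr-/-, so that they had to be higher there. With no minimum mean none of the 3 was called, and with voom or no covariate Il6st and Nrp1 were not (adjusted p up to 0.0553, 0.131 and 0.0919 for Egfr, Il6st and Nrp1). In Ahr-/- against WT 0 of 8 were called by limma (2 higher and 6 lower), and in Ahrr-/- against WT 0 of 10 were called. There 10 of 10 were higher, Nrp1 among them, which was below the minimum mean in WT and also passed only through Ahrr-/-. Il6st was lost without Ahr-/- F1, F2, M1 or M3 or Ahrr-/- F3, M2 or M3 (adjusted p up to 0.0902), and Nrp1 without Ahr-/- F1, F2, M1 or M3 or Ahrr-/- F3 or M3 (up to 0.0690). Without Ahrr-/- F3, M1 and M3, Egfr was 0.53 (SE 0.17), Il6st 0.57 (SE 0.17) and Nrp1 0.50 (SE 0.16), none called (adjusted p 0.0882, 0.0777 and 0.106). The most abundant was Erbb3 at 72.7 per kb (0.84, SE 0.33, adjusted p 0.0926). These are also receptors of epithelium, stroma and vessels, and the part of such cells in the result was not tested. Of 8 receptors of the TNF superfamily ligands 4 were tested and 0 called between genotypes, and the most abundant was Tnfrsf14, a receptor of LIGHT, at 91.1 per kb.

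Of 8 genes of shedding and processing 6 were tested. Adam17, the protease that sheds TNF and EGF receptor ligands, was higher in Ahr-/- than in WT (0.49, SE 0.14, adjusted p 0.0423) and lower in Ahrr-/- than in Ahr-/- (-0.77, SE 0.11, adjusted p 0.000557). The call between the knockouts was made without each of the 12 samples in turn, and that against WT only without WT F2 or M2 or Ahr-/- M1, with adjusted p up to 0.111, and it was kept in 8 of 11 planned settings (up to 0.135). Adam9 was higher in Ahrr-/- than in Ahr-/- (0.65, SE 0.10, adjusted p 0.000999), also without each sample in turn. Without Ahrr-/- F3, M1 and M3 together, Adam17 (-0.66, adjusted p 0.00372) and Adam9 (0.71, adjusted p 0.00278) were called too. Adam8, at 1410 per kb the most abundant of them, was not called.

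Vegfa is a known target of hypoxia-inducible factors. The list of that pathway mixes regulators of these factors, such as Vhl, with genes induced by hypoxia. Counts of directions in it therefore do not measure the activity of the pathway. Of its 12 tested genes 4 were called in Ahr-/- against WT, all lower, where 8.84% of all genes were. Between the knockouts 5 were called, all higher in Ahrr-/-, where 14.9% were. In Ahr-/- against WT 2 of 12 were higher and 10 lower, and after median centring or quantile normalization 3 and 9, with 3 called. Between the knockouts 10 were higher and 2 lower, but 8 and 4 after median centring and 9 and 3 after quantile normalization, with 4 called in each. Hif1a was at -0.84 (SE 0.19, adjusted p 0.0100) and 0.84 (SE 0.20, adjusted p 0.0144), called without each sample in turn in both comparisons and in 10 and 9 of 11 planned settings (adjusted p up to 0.0607 and 0.0799). Vhl was at -0.78 (SE 0.11, adjusted p 0.000355), called without each sample, and at 0.54 (adjusted p 0.0340), called only without Ahrr-/- F1, F2, M2 or M3 and in 6 of 10 planned settings (up to 0.102). Ldha was at -0.63 (adjusted p 0.0236) and 0.67 (adjusted p 0.0357), lost in the first without WT F3 or M3 or Ahr-/- F1, F2 or M3 (up to 0.0715) and in the second without any Ahr-/- sample except F3 or without Ahrr-/- M3 (up to 0.0869). It was kept in 9 and 10 of 11 planned settings (up to 0.0915 and 0.109). Epas1 was at -0.65 (adjusted p 0.0483) and 1.05 (adjusted p 0.0298) and Ndrg1 was called between the knockouts alone (0.84, adjusted p 0.0285). The first Epas1 call was kept in 3 of 10 planned settings (adjusted p up to 0.211) and, of the samples left out, only without WT M1 or Ahr-/- F2 or M3, and the second, like that of Ndrg1, was lost without Ahr-/- F1, M1, M2 or M3 or Ahrr-/- F3, M1 or M3. Between the knockouts Epas1 and Ndrg1 were kept in 8 and 9 of 10 planned settings (up to 0.124 and 0.113). Without Ahrr-/- F3, M1 and M3, Hif1a (1.15, adjusted p 0.000151) and Vhl (0.75, adjusted p 0.00678) were called, as Vegfa was, and Epas1, Ndrg1 and Ldha were not (0.371, 0.357 and 0.0961). With all 12 samples of each comparison Vegfa had the same signs, -0.32 and 0.47, and was called in neither comparison in the main test, but quantile normalization called it between the knockouts (adjusted p 0.0397). In Ahrr-/- against WT 6 of the 12 pathway genes were higher and 6 lower, with 0 called. Between the sexes, where Vegfa was lower in males, 6 were higher and 6 lower in males (median 0.00). Slc2a1 alone was called there, lower in males, where 3.06% of all genes were called.

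**Figure D5:**
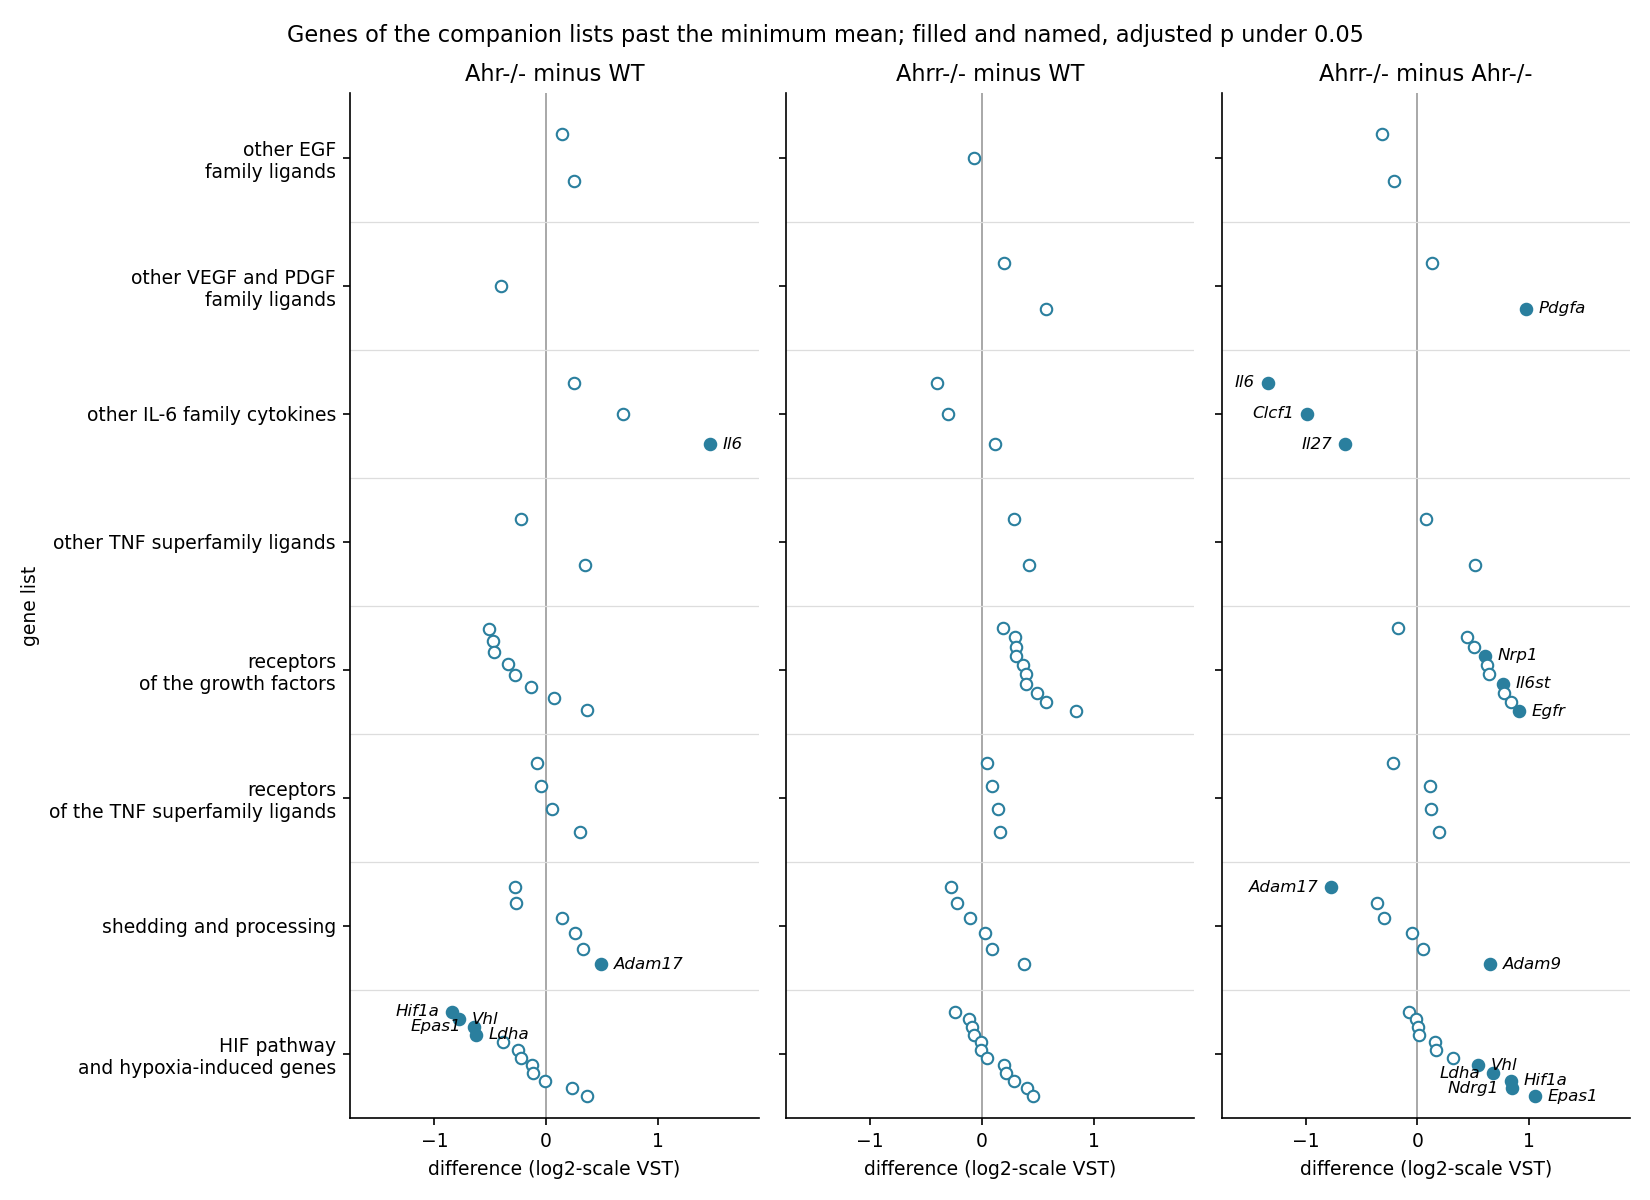
Differences of the tested genes of 8 lists (vertical axis) in 3 genotype comparisons on the log2-like VST scale (horizontal axis), filled and named where the adjusted p was under 0.05. Il6 (1.46), Adam17 (0.49) and 4 hypoxia pathway genes were called in Ahr-/- against WT, none in Ahrr-/- against WT by limma, and the IL-6 family genes were lower and Egfr (0.91) and Pdgfa (0.97) higher in Ahrr-/- than in Ahr-/-.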

How the data were processed

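RNA of 18 sorted eosinophil samples was sequenced. The authors' deposited table holds log2-like variance-stabilized values computed with DESeq2, and the submitters' notes name STAR 2.5.2, RSEM 1.3.0 and R 4.0.3. The transformation was turned back to whole counts and size factors, to a deviation of at most 3.6e-08, which gave totals of 3842977 to 12046933 per sample. Levels per kb used exon lengths of the GENCODE annotation of GRCm38. Genes with a mean at least 1 above the lowest value were tested with limma 3.58.1 in R 4.3.3 (empirical Bayes with a mean-variance trend, sex or genotype as covariate, Benjamini-Hochberg adjustment over all tested genes). Figures and summaries used Python 3.11.15, numpy 2.4.6, pandas 2.3.3 and matplotlib 3.10.9. Alternatives were no minimum mean, a minimum of 3, median centring, quantile normalization, no trend, robust empirical Bayes, a replicate block, log2 of normalized counts plus 1, voom, no covariate, all 18 samples, and each sample left out. The fits were tested on simulated data, whose outcome is not reported here. The members and lists were chosen with earlier results of these data known. Named are the 10 members, and of each companion list the genes called between genotypes, up to the 4 with the largest difference, and the most abundant gene. For each tested member the 3 genes of highest r are named.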

Additional observations from a re-analysis of the deposited data

Results flagged for a closer look

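Values were checked for a sample far from the other 5 of its genotype, in 30 groups of 6 samples, and 3 groups held such a sample, where chance marks about 1 in 20 groups. Tnfsf13b was highest in WT F3, at 7.26, far above the other WT samples. Tnfsf13b was also highest in Ahr-/- M1, at 6.88, far above the other Ahr-/- samples. Tnfsf9 was lowest in WT F2, at 5.02, the value of a count of 0.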

How the results depend on the processing

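The numbers in the sample names were not taken to pair samples between genotypes. Correlations between samples of the same number, after removal of the means of genotype and sex, ran from -0.27 to 0.47 for WT and Ahr-/-, from -0.59 to 0.33 for WT and Ahrr-/- and from -0.34 to 0.33 for the knockouts, and a sample matched its own number best in 2, 1 and 2 of 6 pairs. Whether samples of the same number were processed together was not tested. WT F3 and Ahr-/- F3 both had few genes at 0 (2464 and 3014). The replicate block is reported only as an alternative.

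The number of genes called between WT and Ahr-/- (1003) was 623 with no minimum mean, where more genes are tested, 553 with all 18 samples in the fit and 586 without the F3 samples of WT and Ahr-/-. Leaving out each sample gave 623 to 1124 genes and 0 to 1 members. Between WT and Ahrr-/- (9) it was 4 with no minimum mean, median centring, the replicate block, log2 of normalized counts plus 1 or voom and without Ahrr-/- F3, M1 and M3, 5 with the stricter minimum or quantile normalization and 14 with all 18 samples. Leaving out each sample gave 4 to 25 genes and 0 members. Between the knockouts (1708) it was 713 with no minimum mean, 828 with the stricter minimum, 994 with no covariate and 626 without Ahrr-/- F3, M1 and M3, and 818 to 2574 leaving out each sample. Members called there (3) were 0 with no minimum mean or the stricter minimum, 5 with the replicate block, 1 without Ahrr-/- F3, M1 and M3, and 2 to 4 leaving out each sample. Between the sexes (351) it was 163 with no minimum mean and 211 with no covariate, and 142 to 733 leaving out each sample. Members called there (2) were 1 under each alternative except the stricter minimum and the omission of Ahrr-/- F3, M1 and M3, which gave 2, and 1 to 3 leaving out each sample. The interactions gave 0 genes under every alternative run. Beyond the numbers of genes and samples in the fit, the cause was not tested.

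Some member differences changed sign, none of them called. In Ahrr-/- against WT, quantile normalization gave -0.00421 for Osm and -0.0228 for Tnfsf13b, and Osm was -0.00244 without the F3 samples. Without Ahrr-/- F3, M1 and M3, Hbegf was -0.13, Tgfa -0.26, Tnfsf13b -0.19 and Tnfsf10 -0.25. Between the knockouts Tnfsf13b was -0.0524 with median centring, -0.0941 with quantile normalization and -0.18 without Ahrr-/- F3, M1 and M3, and between the sexes it was -9.8e-05 with median centring and -0.0511 without those 3 samples. Leaving out each sample gave ranges of -0.0690 to 0.268 for Tnfsf13b in Ahr-/- against WT, and in Ahrr-/- against WT of -0.00200 to 0.374 for Vegfa, -0.000453 to 0.416 for Tgfa, -0.0805 to 0.237 for Osm and -0.0900 to 0.277 for Tnfsf13b. For Tnfsf13b they were -0.112 to 0.105 between the knockouts and -0.0603 to 0.176 between the sexes. Both omissions of several samples were chosen after seeing the data.

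Tnfsf13 and Tnfsf9 had at most 28 counts in a sample and were tested only with no minimum mean, where neither was called.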
